A study of Mus musculus with 4 samples.

Results

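The small proline-rich (Sprr) genes were followed in lumbar spinal cord of mice whose L5 spinal nerve had been ligated. Members were all non-control array probes whose gene name begins with Sprr, which gave 17 probes for 15 genes, of 55681 probes and 34787 named genes or transcripts in all. The family was selected on the SNL against sham differences of some of its members in these same arrays, so those values are given as a description, and no member is tested. Each of 4 mice gave 1 array. All were adult male ICR mice, an outbred strain, 8 weeks old in the labels and perfused with saline before the cord was taken at 10 days after surgery. Tight silk ligation of the L5 spinal nerve (spinal nerve ligation, SNL) was done in 2 mice, and 2 sham mice had the nerve exposed without a tie. Per the labels' protocol segments L4 to L5 were taken, while the source label names L5 only, and which side of the cord was taken was not analysed here.

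Small proline-rich proteins are short, proline-rich chains that transglutaminases cross-link into the cornified envelope, the tough inner shell of skin and other stratified epithelia. Their genes sit together in the epidermal differentiation complex, between genes for loricrin, involucrin and the late cornified envelope proteins. Sprr1a is also known outside epithelia, as a gene that sensory and motor neurons switch on after a peripheral nerve is cut, where its protein has been linked to axon outgrowth. No comparable role in nerve injury is assumed here for the Sprr2 genes, which are best known from skin, gut and uterus.

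The probes lay within 276.9 kb of chromosome 3 (mm9, per the file headers), from chr3:92027346 to chr3:92304254, 13 on the plus strand and 4 on the minus strand. Each probe is an oligonucleotide of 60 bases. Because the genes are alike, the following stretches of 30 bases are shown for the 5 genes that stood higher after ligation, for the Sprr2i probe, which resembles one of them, and for the bright Sprr2a2 probe described further on. Capitals mark the letters AATAAA, a polyadenylation signal, where the probe holds it.
Sprr1a: catattgaatggctacacttttcatggctc
Sprr1b: tatgttcctattaaatctccttacattcct
Sprr2f: tttttcaaatctctctgtcacttgagcagg
Sprr2g: ttccatttgctgAATAAAgtataatctttt
Sprr2j-ps: cactggtgttctatttcctgAATAAAgtac
Sprr2i: tttcatttcctgAATAAAgtaccgtcttgt
Sprr2a2: aattcatggcctAATAAAcaaaaacgaaaa

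Their positions on mm9 are chr3:92287955-92288014 for Sprr1a, chr3:92240731-92240790 for Sprr1b, chr3:92170259-92170318 for Sprr2f, chr3:92179092-92179151 for Sprr2g and chr3:92223245-92223304 for Sprr2j-ps. The probes of Sprr1a and Sprr1b are on the minus strand and those of the other 3 on the plus strand. The place of the probes within exons was not analysed here. Over the 136 pairs of Sprr probes, set side by side without gaps over at least 30 bases, the median identity was 43.8%. The most alike pair was Sprr2g with Sprr2j-ps, with 7 mismatches over 44 aligned bases. The longest run shared by any pair was the 18 bases atttcctgaataaagtac, held by the probes of Sprr2j-ps and Sprr2i. The probes of Sprr1a and Sprr1b shared no run of 15 bases or more with any other probe of the array. Probes were compared with probes only, so matches to other parts of transcripts were not looked for.

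Values are spot signals in the scanner's intensity units, and differences are SNL minus sham on a log2 scale after each array was set to its own 75th percentile. A probe counts as measured on an array where the scanner software put it well above background. The lowest signal that passed this mark was 54.9 and 52.4 for the sham mice and 99.9 and 102 for the ligated mice, so a dim probe had to be brighter to pass after ligation. All 4 arrays were on 1 slide and read in 1 scan. The sham arrays held the positions with first number 1 and the SNL arrays those with first number 2, so position on the slide and surgery cannot be told apart. In pieces of tissue, a change in the number of cells of a type and a change in RNA per cell cannot be told apart either. All 14 genes taken as a check of spinal cord tissue, such as the neuronal Snap25 and the astrocytic Aqp4, were well above background on all 4 arrays, with a median difference of 0.074, and 0 of them passed in limma at an adjusted p of 0.05.

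Of the 17 probes, 3 and 4 were well above background in the sham mice and 7 and 8 in the SNL mice, and 8 were so in none. Of the 15 genes, 8 were measured on at least 2 arrays and so entered the fit over all genes. Among these 8, Sprr1a, Sprr1b, Sprr2f, Sprr2g and Sprr2j-ps were at least 2-fold higher after ligation with both SNL mice above both sham mice, and 0 were lower by that rule. The same rule held for 2.36% of the 29111 genes tested in the higher direction and for 0.945% in the lower. Sprr2e, Sprr4 and Sprr2a2, the last by its brightest probe, differed by 0.29 or less. Of the 5 higher genes, 4 were kept by the filter through the SNL mice only. Nothing is read from these counts, since the contrast was used to choose the family.

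**Figure D1:**
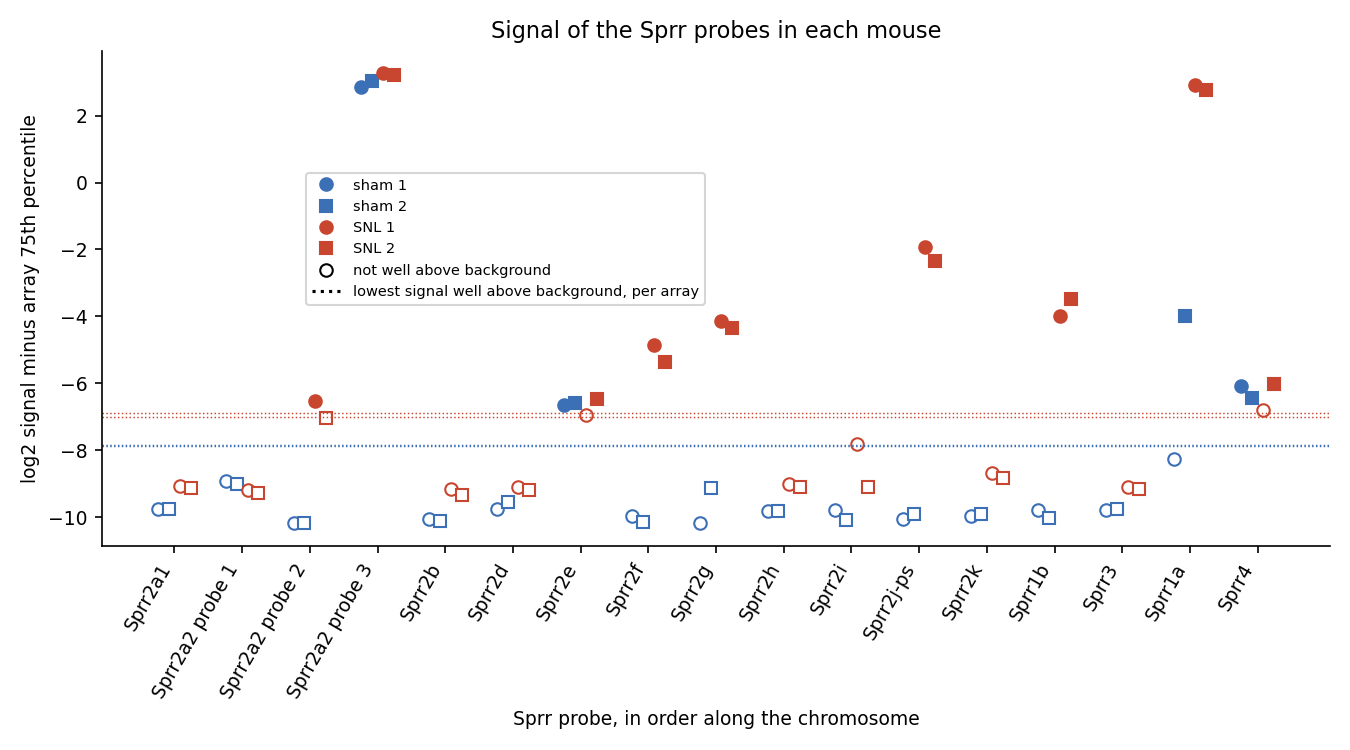
Signal of each of the 17 Sprr probes on each of the 4 arrays, as log2 signal minus the array's 75th percentile, in order along the chromosome. Filled marks are well above background and open marks are not, circles are replicate 1 and squares replicate 2, and dotted lines give the lowest signal well above background on each array. Sprr1a reaches 2.91 and 2.77 in the SNL mice, and the bright Sprr2a2 probe is high in all 4 mice.

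Sprr1a, the member known from injured neurons, had a signal of 41.3 and 767 in the sham mice and of 88707 and 89205 in the SNL mice. Both SNL mice were far above both sham mice, and the SNL mice were close to each other. The first sham mouse was not well above background and the second was, 18.6 times brighter than the first. The log2 means were -6.13 ± 3.03 in sham and 2.84 ± 0.097 in SNL (SD, n = 2 each), a difference of 8.97. The size of that difference rests on which sham mouse is taken: it was 6.82 without sham replicate 1 and 11.1 without sham replicate 2. The gap of 4.29 between the sham mice was exceeded by that of 23 of the 29111 genes tested, whose median gap was 0.14. Atf3, the transcription factor of the same injury response, was at -2.54 and -2.55 in the sham mice on the same log2 scale, so its sham values had no such gap.

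Sprr1b, the closest relative of Sprr1a and a cornified envelope precursor of skin, had signals of 14.6 and 11.6 in sham and of 748 and 1179 in SNL. Neither sham mouse was well above background and both SNL mice were. The log2 difference was 6.18, with SD of 0.18 in sham and 0.36 in SNL. Since the sham level is only a bound, the change is given as at least 17.5-fold: the SNL mean over the higher, array by array, of the probe's own sham signal and the lowest signal well above background there. Both of its sham signals were surrogate values, which the scanner software writes for spots too dim to measure, as were both of Sprr2f and the first of Sprr2g and Sprr2j-ps. Such bounds are stated for the main values only, and normexp background correction, which adds an offset of 50 to every signal, gave 11.7-fold for Sprr1b.

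Among the Sprr2 genes, Sprr2j-ps differed most. It is annotated as a transcribed pseudogene, so its RNA is not expected to give a protein. Signals of 12.0 and 12.5 were read in the sham mice, and of 3097 and 2592 after ligation. Both sham mice lay at the background and both SNL mice far above it. The log2 difference was 7.85 (SD 0.097 in sham and 0.28 in SNL), or at least 52.8-fold, and 4.67 with normexp correction. The Sprr2i probe, which shares the 18-base run shown above, read 14.4 and 11.1 in the sham mice against 53.1 and 24.1 after ligation, and was well above background in none of the 4 mice.

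Sprr2g, also annotated as a transcribed pseudogene, had signals of 11.0 and 21.7 in sham and of 670 and 649 in SNL. It too was measured in both SNL mice and in neither sham mouse. Its log2 difference was 5.41 (SD 0.74 and 0.14), or at least 12.3-fold, and 2.90 with normexp correction. Its probe is the one most like that of Sprr2j-ps, so which of these neighbours each probe reads is uncertain.

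Sprr2f, a protein-coding Sprr2 gene known from the uterus, where oestrogen induces it, had signals of 12.7 and 10.8 in sham and of 409 and 315 in SNL. Again both SNL mice and neither sham mouse passed the background mark. The log2 difference was 4.93 (SD 0.11 and 0.37), or at least 6.69-fold, and 2.62 with normexp correction. The Sprr2h probe, which shares the 15 bases acatttttcaaatct with it, was not well above background in any mouse, with 14.2 and 13.5 for sham and 23.2 and 23.8 for ligated mice. Sprr1b, Sprr2f, Sprr2g and Sprr2j-ps are thus the 4 of 17 probes that were well above background in both SNL mice and in neither sham mouse, a pattern seen in 0.499% of all probes. The reverse pattern was seen in 0 Sprr probes and in 3.09% of all probes.

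The 3 other measured genes lay close to their sham levels, Sprr2a2 by its brightest probe only. Sprr2e, a cornified envelope precursor, had signals of 128 and 127 in the sham mice against 95.1 and 148 after ligation. Its SNL mice lay on either side of both sham mice, and the lower of them was not well above background. The log2 difference was -0.10 (SD 0.045 and 0.35), and 0.18 with normexp correction. Sprr4, the last gene of the cluster, read 188 and 139 in the sham mice against 107 and 201 after ligation, so its groups overlapped, and its lower SNL value was not well above background. Its log2 difference was -0.14 (SD 0.26 and 0.54), and 0.13 with normexp correction.

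Sprr2a2 was read by 3 probes that disagreed. The probe at chr3:92060587-92060646 was bright in every mouse, with 92911 and 99015 for sham and 113663 and 121440 for ligated mice, a log2 difference of 0.29 (SD 0.12 and 0.035). It was the only Sprr probe well above background on all 4 arrays. A second probe, at chr3:92058417-92058476, read 11.1 and 10.5 in the sham mice against 128 and 98.9 after ligation, and passed the background mark in the first SNL mouse only. Its log2 difference was 3.38, and 1.62 with normexp correction. The remaining probe, at chr3:92054627-92054686, was well above background in no mouse, with 26.7 and 23.4 for sham and 20.2 and 21.1 for ligated mice. Per the files, all 3 match the RefSeq transcripts of both Sprr2a1 and Sprr2a2.

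The bright Sprr2a2 probe also stood apart in its sequence. It shared runs of 15 bases or more with 12 probes that are not named Sprr, placed on 9 chromosomes, the longest run being 31 bases, and all 12 were well above background on all 4 arrays. No other Sprr probe shared such a run with more than 3 probes outside the family. Which transcript this probe reads is therefore uncertain, and whether its signal comes from Sprr2a RNA was not tested.

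The 8 probes measured in no mouse were those of Sprr2a1, Sprr2b, Sprr2d, Sprr2h, Sprr2i, Sprr2k and Sprr3 and 1 of the 3 of Sprr2a2. Sprr3 encodes an envelope protein of oral and oesophageal lining, and the Sprr2 genes among them encode envelope precursors. Their signals ran from 11.0 to 26.7 in the sham mice and from 20.2 to 53.1 in the SNL mice. On the log2 scale the differences ran from -0.27 to 1.5, with a median of 0.71. Over all 8935 probes of the array that were measured nowhere the median was 0.69, and 0.22 with normexp correction, so values this low have no order. With no filter on dim probes 2 more genes, Sprr2i and Sprr2k, counted as at least 2-fold higher.

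**Figure D2:**
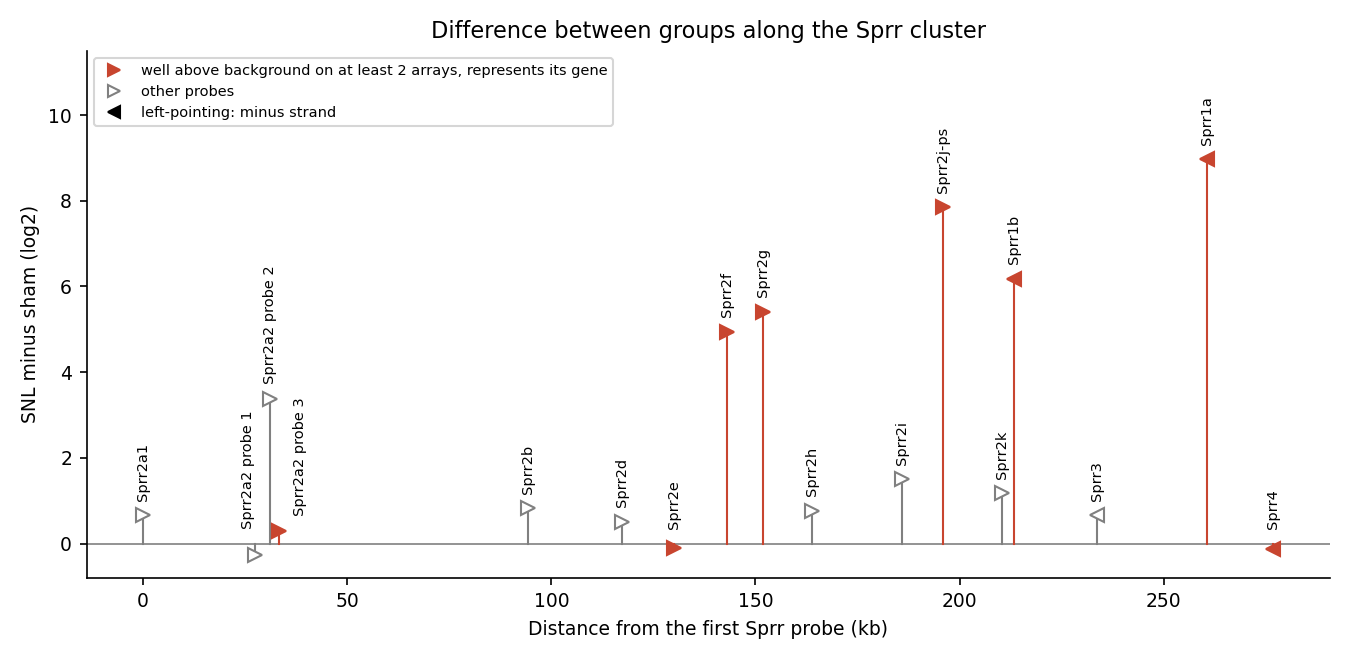
Difference in log2 signal between SNL and sham for each Sprr probe against its distance in kb from the first Sprr probe. Filled red marks are the 8 probes that represent a gene measured on at least 2 arrays, grey open marks the other probes, and left-pointing marks probes on the minus strand. The 5 genes with differences of 4.93 to 8.97 stand among others near 0 or not measured. The second Sprr2a2 probe is apart from both, at 3.38, and was measured in the first SNL mouse only.

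Along the cluster the 5 higher genes were not all neighbours. Sprr2f and Sprr2g lie side by side at 143 and 152 kb from the first probe, followed by Sprr2h and Sprr2i, which were not measured, and then by Sprr2j-ps at 196 kb. Sprr2k, not measured, comes next at 210 kb. Sprr1b lies at 213 kb and Sprr1a at 261 kb, with Sprr3, not measured, between them. Sprr2e at 130 kb and Sprr4 at 277 kb, which flank the higher genes on either side, were measured and lay near 0.

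Promoters of the family are shown because several members stood higher together. RefSeq promoter sequences of GRCm38.p6, each from 250 bases before to 50 after the start, held 14 Sprr genes, including Sprr2a3, which is not on the array under that name. Sprr2g and Sprr2j-ps had no entry. The AP-1 motif TGANTCA, the letters bound by Jun, Fos and Atf family factors, was searched on both strands, where it reads alike. Stretches of 47 bases around the match nearest to the start follow, with every match in capitals, for the 3 higher genes with an entry, for Sprr2e, which lay near 0, and for Sprr2k, which was not measured.
Sprr1a: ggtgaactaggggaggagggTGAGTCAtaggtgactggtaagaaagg
Sprr1b: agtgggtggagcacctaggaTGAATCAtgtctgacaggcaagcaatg
Sprr2f: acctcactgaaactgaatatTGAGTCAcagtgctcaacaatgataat
Sprr2e: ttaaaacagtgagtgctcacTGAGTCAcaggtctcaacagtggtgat
Sprr2k: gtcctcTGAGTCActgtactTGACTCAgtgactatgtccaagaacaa

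On GRCm38.p6 these are chr3:92485971-92486017 and chr3:92438864-92438910 on the minus strand for Sprr1a and Sprr1b. Those on the plus strand are chr3:92364970-92365016 for Sprr2f, chr3:92351930-92351976 for Sprr2e and chr3:92432380-92432426 for Sprr2k. The match nearest to the start began 116 bases before it in Sprr1a, 111 in Sprr1b, 197 in Sprr2f, 193 in Sprr2e and 182 in Sprr2k. In all, 9 of the 14 Sprr promoters held the motif, against 7.81% of 32851 promoters of the same length. These are Sprr1a, Sprr1b, Sprr2f, Sprr2e and the unmeasured Sprr2b, Sprr2d, Sprr2h, Sprr2i and Sprr2k. The letters were thus found in the higher genes with an entry and in Sprr2e, which lay near 0. Sprr4 and Sprr2a2, the other measured genes near 0, held no match, Sprr2a2 being near 0 by its brightest probe only. The unmeasured genes cannot be placed on either side. The ATF and CREB motif TGACGTCA was in 0 of the 14, against 1.79% of all. The STAT motif TTCNNNGAA was in 2, Sprr2a3 and Sprr2i, against 8.30% of all. A match of letters is not a bound site. In Sprr2b, Sprr2d, Sprr2e, Sprr2f, Sprr2h and Sprr2i the AP-1 match began 193 to 198 bases before the start. Promoters so alike are not separate cases, so the share over the 14 is not read as an enrichment.

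Other genes of the cornified envelope were taken from a list of 37, of which 19 were measured on at least 2 arrays. In limma, 1 of the 19 passed an adjusted p of 0.05 and was higher after ligation, and 0 were lower, where 0.161% of all genes were higher and 0.0103% lower. By a looser rule, a change of 2-fold or more with an unadjusted limma p under 0.05, the list had 4 higher and 0 lower, where 1.91% of all genes were higher and 0.711% lower. The list's median difference was 0.36, against 0.028 over all genes tested, and moved to 0.80 without SNL replicate 1 and to 0.19 without SNL replicate 2. Tchhl1, a relative of the hair protein trichohyalin, rose by 3.01 in log2 signal, with an SE of 0.10 over 2 mice a group (limma adjusted p = 0.0373). The late cornified envelope genes Lce1i and Lce1g were at 1.77 ± 0.12 and 2.97 ± 0.32 and did not pass (limma adjusted p = 0.0721 and 0.122).

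Markers of keratinocytes, the skin cells in which Sprr proteins are best known, were 22 measured genes of 25, and 1 was higher and 0 lower by adjusted p in limma. Of all genes 0.161% were higher and 0.0103% lower by adjusted p, and 1.91% and 0.711% by the 2-fold rule. By the 2-fold rule 3 keratinocyte genes were higher and 0 lower, and the median difference was 0.17. Without SNL replicate 1 these were 6 higher and 0 lower with a median of 0.47, and without SNL replicate 2 they were 3 higher and 1 lower with a median of -0.081. Quantile normalization gave a median of 0.078. The passing gene was Krt16, a keratin of stressed and wounded epithelium (limma adjusted p = 0.0474). It was well above background in neither sham mouse and at least 18.1-fold higher after ligation. Krt16 was thus kept by the filter through the SNL mice only, and its p rests on sham values below the background mark. Krt17 and the skin protease gene Klk7 were at 1.65 ± 0.11 and 2.15 ± 0.25 and did not pass (limma adjusted p = 0.0668 and 0.139). The summed level of the whole keratinocyte list, each gene relative to the array's 75th percentile, was 16.7 and 18.9 in the sham mice and 18.7 and 20.3 in the SNL mice. Each sum came mostly from Trp63, whose log2 level ran from 3.53 to 3.83 across the 4 arrays. The next brightest member, Sbsn, reached no more than 1.05. These sums thus say little about the other members of the list. Of the 25 genes, 20 were well above background in both sham mice and 20 in both SNL mice.

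Genes of axon injury and regeneration, among which Sprr1a is often counted, were 32 measured of 33, with no Sprr gene among them. The remaining gene, Ecel1, lacked a full set of values once outlier spots were dropped, so its level is not known here. In limma 5 of the 32 were higher and 0 lower at an adjusted p of 0.05, against 0.161% and 0.0103% of all genes. By the 2-fold rule 9 were higher and 0 lower, against 1.91% and 0.711% of all genes, and the list median was 0.56. Atf3, induced by axon damage, rose by 5.22 ± 0.10 (limma adjusted p = 0.0371), and the neuropeptide gene Gal by 2.92 ± 0.14 (limma adjusted p = 0.0474). Ankrd1, a muscle ankyrin repeat gene that injured neurons also switch on, was measured in neither sham mouse and at least 40.8-fold higher (limma adjusted p = 0.0401). The filter kept Ankrd1 through the SNL mice only, so its p rests on sham values below the background mark. The orphan receptor gene Gpr151 and the tubulin gene Tubb6 also passed, and are named for completeness after their values were seen.

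The gp130 cytokine and AP-1 list, a pathway known to induce Sprr1a in heart muscle cells, held 27 genes, of which 26 were measured. In limma 1 was higher by adjusted p, Atf3, which the injury list holds too, and 0 were lower. Shares of all genes were 0.161% higher and 0.0103% lower. By the 2-fold rule 6 were higher and 0 lower, against 1.91% and 0.711% of all genes. The list median was 0.20, or 0.12 with quantile normalization. Socs3, a feedback inhibitor of this pathway, was at 1.99 ± 0.16 and the AP-1 factor gene Fosl1 at 1.1 ± 0.12, and neither passed (limma adjusted p = 0.0876 and 0.121). Leaving out any 1 mouse leaves 1 mouse in a group, so such fits cannot show whether the adjusted calls of these 4 lists hold. With quantile normalization of all mice, limma called 0 genes of the cornified envelope list, 0 of the keratinocyte list, 1 of the axon injury list and 1 of the gp130 and AP-1 list, all called genes being higher.

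**Figure D3:**
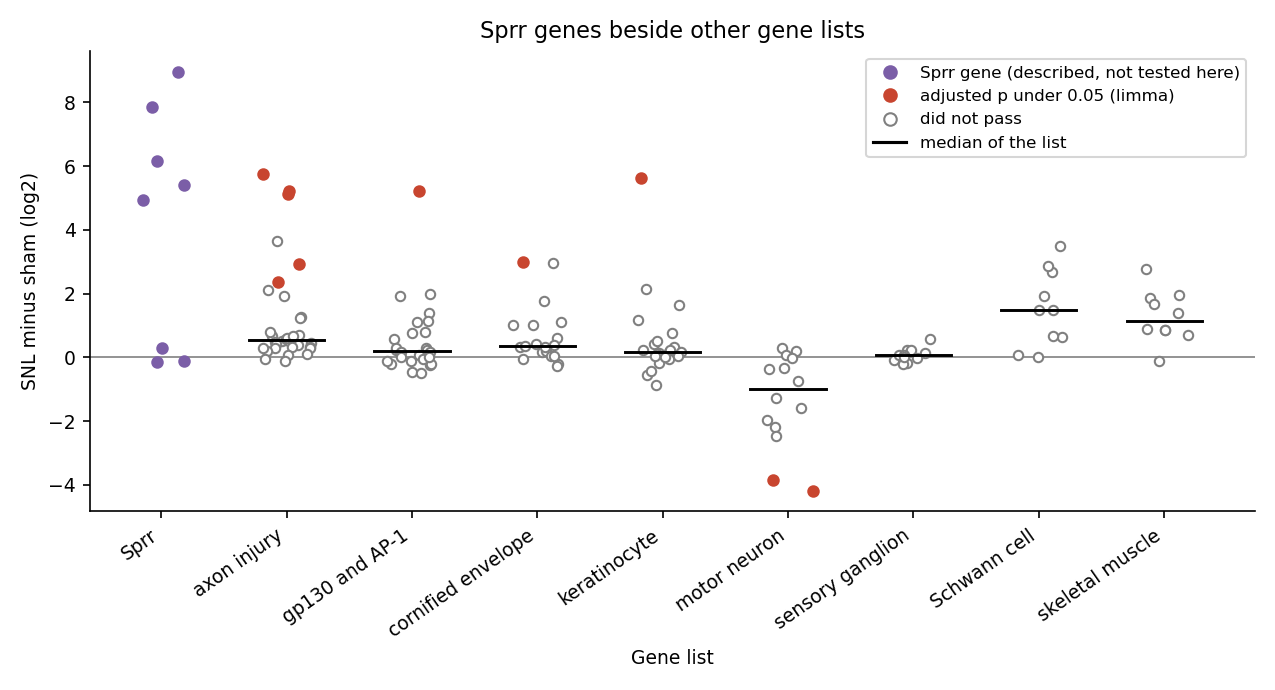
Difference in log2 signal between SNL and sham for the 8 measured Sprr genes and for each measured gene of 8 other lists. Red marks passed an adjusted p of 0.05 in limma, open marks did not, black lines are list medians, and Sprr genes are purple and shown without a test. The 5 higher Sprr genes lie from 4.93 to 8.97, and single genes of other lists, such as Ankrd1 at 5.75 and Atf3 at 5.22, reach into that range.

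Markers of cell types that could travel with the tissue were read beside the family. Sensory ganglion genes had a median difference of 0.078 over 11 measured of 14, or -0.055 with quantile normalization. Their summed levels were 17.6 and 16.8 for sham and 18.5 and 16.9 for ligated mice. Most of each sum came from Prph, Calca and Tac1, and Prph is in the motor neuron list too. Of the ganglion list 2 genes were well above background nowhere. Trpv1, P2rx3 and Avil, the members with the smallest p, were at 0.59, 0.16 and 0.23 and did not pass (limma adjusted p from 0.473 to 0.617). Schwann cell genes had a median of 1.49 over 10, of which 0 passed. That median turned to -0.14 without sham replicate 2 and was 3.13 without sham replicate 1, where 7 of 10 were higher by the 2-fold rule, and it was 0.94 without SNL replicate 1. Summed levels of this list were 28.2 and 15.3 for sham and 35.7 and 26.0 for ligated mice. The Schwann genes Drp2, Pmp22 and Ncmap were at 0.65, 0.67 and 1.48 (limma adjusted p from 0.387 to 0.570). Skeletal muscle genes summed to 2.91 and 4.09 in sham and to 33.7 in the first SNL mouse against 2.01 in the second, and 0 of 10 passed. The muscle list's median difference of 1.15 turned to -1.46 without the first SNL mouse, and was 3.67 without the second, where 10 of 10 were higher by the 2-fold rule. Actn3, Ckm and Acta1, of muscle, were at 1.86, 2.77 and 0.86 (limma adjusted p from 0.674 to 0.763). Their part in the Sprr values was not tested. Computed without that first SNL mouse, the Sprr differences were 8.90 for Sprr1a, 7.65 for Sprr2j-ps, 6.43 for Sprr1b, 5.32 for Sprr2g and 4.67 for Sprr2f.

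Motor neuron genes, which belong to cells whose axons run in the ligated nerve, were lower for some members. Of 14 measured, 2 fell and 0 rose by adjusted p in limma, against 0.0103% of all genes lower and 0.161% higher. By the 2-fold rule 7 were lower and 0 higher, against 0.711% and 1.91% of all genes, and the list median was -1.0. Chodl, which marks motor neurons of fast muscle units, fell by 3.84 in log2 signal (SE 0.12, limma adjusted p = 0.0371). Mnx1, a motor neuron homeobox factor, was at least 15.6-fold lower (limma adjusted p = 0.0401). The filter kept Mnx1 through the sham mice only, so its p rests on SNL values below the background mark. Uts2, a urotensin gene, was at -2.19 ± 0.12 and did not pass (limma adjusted p = 0.0509). With quantile normalization 0 of the 14 passed in limma, and 7 were lower by the 2-fold rule. Summed levels were 34.3 and 30.4 in the sham mice and 21.8 and 18.8 in the SNL mice.

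The genes whose 4-array profiles lay nearest to each Sprr gene were ranked by the root mean square difference of log2 values after subtracting each gene's mean. Nearest to Sprr2f were Gm9758, Speer3 and the lipase gene Lipn, at 0.098, 0.16 and 0.18. Sprr2g had Krt16, Gpr151 and Speer1 as its nearest, at 0.20, 0.21 and 0.24. Ankrd1, Speer1 and Speer4d came nearest to Sprr1b, at 0.40, 0.46 and 0.49, and also to Sprr2j-ps, at 1.07, 1.08 and 1.09. Sprr1a had no close match among named genes, since its nearest, Speer1, Krt16 and the serotonin transporter gene Slc6a4, were at 2.11, 2.13 and 2.16. For the members near 0 the nearest were Krtap5-1, Zfp644 and Krtap6-5 for Sprr2e, Pga5, AA623943 and Spaca7 for Sprr4 and Eif3m, Limd2 and Tfap4 for Sprr2a2, all at 0.020 or less. With 4 arrays these distances describe the profiles only.

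**Figure D4:**
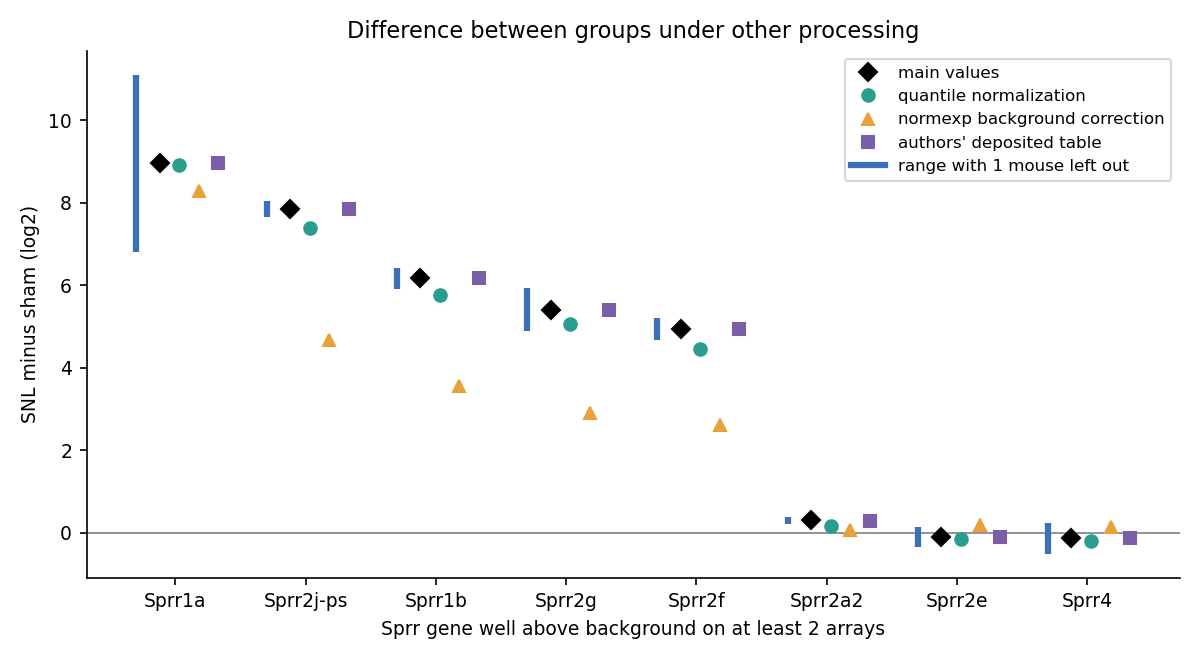
Difference in log2 signal between SNL and sham for the 8 measured Sprr genes under the main values, quantile normalization, normexp background correction and the authors' deposited table, with a bar for the range when 1 mouse is left out. The normexp marks of Sprr2j-ps, Sprr1b, Sprr2g and Sprr2f lie lowest, at 4.67, 3.55, 2.90 and 2.62, and the bar of Sprr1a is the longest, from 6.82 to 11.1.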

How the data were processed

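Amplified RNA carrying Cy3 was read on Agilent arrays of 1 colour, per the labels' protocols. The scanner files deposited by the authors hold intensity values on a linear scale from Agilent Feature Extraction (10.7.3.1 per the file headers, 10.7.1.1 per the submitters' processing notes) for array design 028005, with a surrogate value for dim spots and 0 or 1 flags, such as the outlier flag, as other columns. The log2 table deposited by the authors correlated with the main values at an r that rounds to 1 on each array. Its column medians were -3.46 and -3.53 for sham and -3.49 and -3.34 for SNL, it was not centred per gene, and the spots over which it was scaled stay unknown.

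For the main values the processed signal was put on a log2 scale and the 75th percentile of the array (59305 spots, controls left out) was subtracted, with outlier spots dropped. Probes well above background on at least 2 of 4 arrays were kept, with the brightest probe per gene. Names came through a RefSeq table (GRCm38.p6) for 26762 probes by accession, 3819 by symbol and 639 by synonym, and 24461 kept the file's name. limma 3.58.1 in R 4.3.3 (lmFit, eBayes, no covariate) compared SNL with sham, with Benjamini-Hochberg adjustment over 29111 genes, and was tested on simulated data. With 2 mice a group the smallest p of an exact two-sided test is 0.333. Replicates are separate mice, and their number limits the precision.

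Named genes were all Sprr probes, the 3 nearest profiles of each measured Sprr gene, and, per list, the 3 members of lowest p. The members and lists were chosen with earlier results of these data known. Alternatives were quantile normalization, normexp correction, the authors' table, no filter, the mean of probes, every probe tested, a variance trend with robust estimation, a replicate block and each mouse left out.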

Additional observations from a re-analysis of the deposited data

How the results depend on the processing

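The 5 higher Sprr genes kept their direction and stayed at least 2-fold apart under quantile normalization and normexp correction. The same held for the authors' deposited table, the mean of a gene's probes and each mouse left out, but these checks could hardly differ. Each of the 5 has 1 probe, so the mean of probes returns the same value. The authors' table correlated with the main values at an r that rounds to 1. Groups already apart stay apart when 1 mouse is left out. No filter on dim probes gave 7 genes in place of 5. Under quantile normalization Sprr2f was at 4.46, Sprr2j-ps at 7.39, Sprr1b at 5.75 and Sprr2a2 at 0.16. With normexp correction Sprr2f was at 2.62, Sprr2g at 2.90, Sprr2j-ps at 4.67, Sprr1b at 3.55, Sprr2a2 at 0.051 and Sprr2e at 0.18. That correction adds its offset to all signals, which by its construction draws dim and bright values together, and put 590 genes higher and 109 lower by 2-fold and apart, against 688 and 275. Over all genes, limma called 47 higher and 3 lower, against 11 and 0 with quantile normalization, 119 and 14 with normexp correction, 1143 and 88 with no filter, 436 and 123 with robust estimation and a variance trend, and 63 and 5 with every probe tested. With any 1 mouse left out a group holds 1 mouse, so calls of those fits are not read. With the replicate block limma called 0 and 0, with 2824 genes at unadjusted p under 0.05. The replicate numbers do not pair the mice in the labels, and deviations of same-numbered mice correlated at -0.027 across genes. No block for slide or scan could be fitted, since all arrays shared 1 of each, and causes of these changes beyond what each alternative's construction shows were not tested. Of the family's 17 probes, 8 were well above background in no mouse.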

Other observations

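Outside the family, the 20 measured genes that flank the Sprr cluster on chromosome 3 by RefSeq order, 10 on each side, were looked at after the Sprr values were seen. Nearest on one side, the loricrin gene Lor was at 0.047 and Lelp1 at 0.33, and nearest on the other the involucrin gene Ivl was at -0.058 and Smcp at 0.49. Farther out, Lce1g, Lce1h, Lce1i and S100a3 were at least 2-fold higher with groups apart, at 2.97, 1.13, 1.77 and 1.14. By the same rule S100a7l2 was lower, at -2.27. The S100a3 difference came mostly from the second SNL mouse, at -2.66. Its first SNL mouse was at -4.28, close to the sham mice at -4.41 and -4.81. None of the 20 passed an adjusted p of 0.05 in limma, and 2.36% of all genes were higher and 0.945% lower by at least 2-fold with groups apart.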
